A study of Homo sapiens with 4 samples.

Results

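The transcripts of 43 translation initiation and elongation factors were followed in BLaER1, a human B cell leukaemia line that can be turned into macrophage-like cells. The genes were taken by symbol from a deposited table of 58302 gene rows, and all 43 were found. Differentiated cells (2 libraries) had received 100 nM oestradiol together with M-CSF and IL-3 over 5 to 6 days, and the labels write 10 ng/ml once, before IL-3. Undifferentiated cells (2 libraries) are labelled as not differentiated. The line carries C/EBPα joined to the part of the oestrogen receptor that binds hormone, in both groups, and oestradiol switches this fusion on. Both groups come from this single line, and nothing in the labels ties the libraries of a group to separate cultures, so the p-values below measure the spread between libraries, which may be technical.

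Translation starts when a small ribosomal subunit loaded with initiator methionyl-tRNA by eIF2 and GTP is brought to the capped 5' end of an mRNA by eIF4F and eIF3 and scans to the start codon. eIF2B recharges eIF2 with GTP after each round, and phosphorylation of eIF2 blocks this step during stress. Once the large subunit has joined, eEF1A delivers aminoacyl-tRNAs and eEF2 moves the ribosome along, and many of these factors are made from mRNAs whose own translation depends on mTORC1.

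The values are TPM, an abundance from RNA sequencing corrected for gene length that sums to the same total in every library and keeps no sequencing depth, so no counting error can be given. A few very abundant RNAs held 70.7% to 78.0% of the TPM of each library. RN7SK, a small nuclear RNA, alone held 20.9% and 23.5% of the TPM in differentiated cells, against 35.5% and 41.7% in undifferentiated cells. The share of protein-coding genes was 12.2% and 13.5% in differentiated cells, against 23.0% and 15.6% in undifferentiated cells. Within the undifferentiated group, replicate 1 exceeded replicate 2 for 40 of the 43 factors, by a median of 0.61 on the log2(TPM + 1) scale, and by a median of 0.50 over all tested genes. The corresponding median between the differentiated libraries was -0.16 for the factors and -0.06 for all tested genes. The markers followed the labels: 11 B lineage markers summed to 15.1 and 18.7 TPM in differentiated and 566 and 351 TPM in undifferentiated libraries. The 14 macrophage and monocyte markers summed to 833 and 940 TPM in differentiated and 9.10 and 6.81 TPM in undifferentiated libraries. T and NK cell markers summed to at most 1.02 TPM, erythroid markers to at most 0.70 TPM and fibroblast markers to at most 5.18 TPM in any library. In such bulk samples, fewer cells of a type and less RNA per cell cannot be told apart.

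Of the 43 factors, all passed the filter of at least 1 TPM in at least 2 libraries. After differentiation 22 fell, 0 rose and 21 were not called (limma on log2(TPM + 1), Benjamini-Hochberg adjusted p under 0.05 over 10180 tested genes). At an unadjusted p under 0.05 the count of rises was also 0. Over all tested genes 41.4% were called, 22.8% lower and 18.6% higher. Among the protein-coding genes tested 40.4% were called, 23.0% lower and 17.4% higher. The factors' median log2 difference, differentiated minus undifferentiated, was -0.89, against -0.14 over all tested genes. Both differentiated libraries lay below both undifferentiated libraries for 29 factors and above them for 3, EIF1, EIF2B4 and EIF4G3, while 11 overlapped. Over all tested genes these shares were 39.0% below and 31.0% above.

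The number called depended on single libraries and on the scale. With either differentiated library left out, limma called 0 of the 43 factors, although 35 and 37 of the differences were still below 0. At an unadjusted p under 0.05, 7 factors were lower without differentiated replicate 1 and 10 without differentiated replicate 2. Without undifferentiated replicate 1 limma called 17 lower and 2 higher, and without undifferentiated replicate 2 it called 30 lower. Without the filter on low values, where 29186 rows were tested, 3 remained called, EIF2S1, EIF2S3 and EIF4EBP1. Over all of those rows 573 were called lower and 687 higher. In each of these fits the number of all tested genes called lower moved in the same direction as that of the factors. When TPM were rescaled over protein-coding genes alone, which sets each factor against the cell's other coding transcripts, 15 were called lower and 5 higher, beside 52.4% of all tested genes called, 18.0% lower and 34.3% higher. On the protein-coding scale more genes passed the filter, 11945 against 10180 as deposited. The median over those tested was 0.37 and that of the factors -0.35, a distance of -0.73, against -0.75 as deposited over the smaller set of genes. After median-of-ratios scaling 18 were called lower and 2 higher, beside 55.3% of all tested genes called, 28.1% lower and 27.2% higher. Across the deposited values and 4 other scalings (median of ratios, quantile, without the most abundant RNAs, protein-coding genes alone), 13 of the 22 were called lower each time. These were EIF1AX, EIF2S1, EIF2S2, EIF2S3, EIF3A, EIF3E, EIF3I, EIF3J, EIF3K, EIF4A1, EIF4E, EIF4EBP1 and EIF5B. The factors' median minus that of all tested genes was -0.73 after median-of-ratios scaling, -0.8 without the most abundant RNAs and -0.48 with quantile normalization. It was -0.61 with a filter of 5 TPM and -0.92 with no filter. A scaling by 1 factor per library shifts both medians alike, apart from changes at low values.

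**Figure D1:**
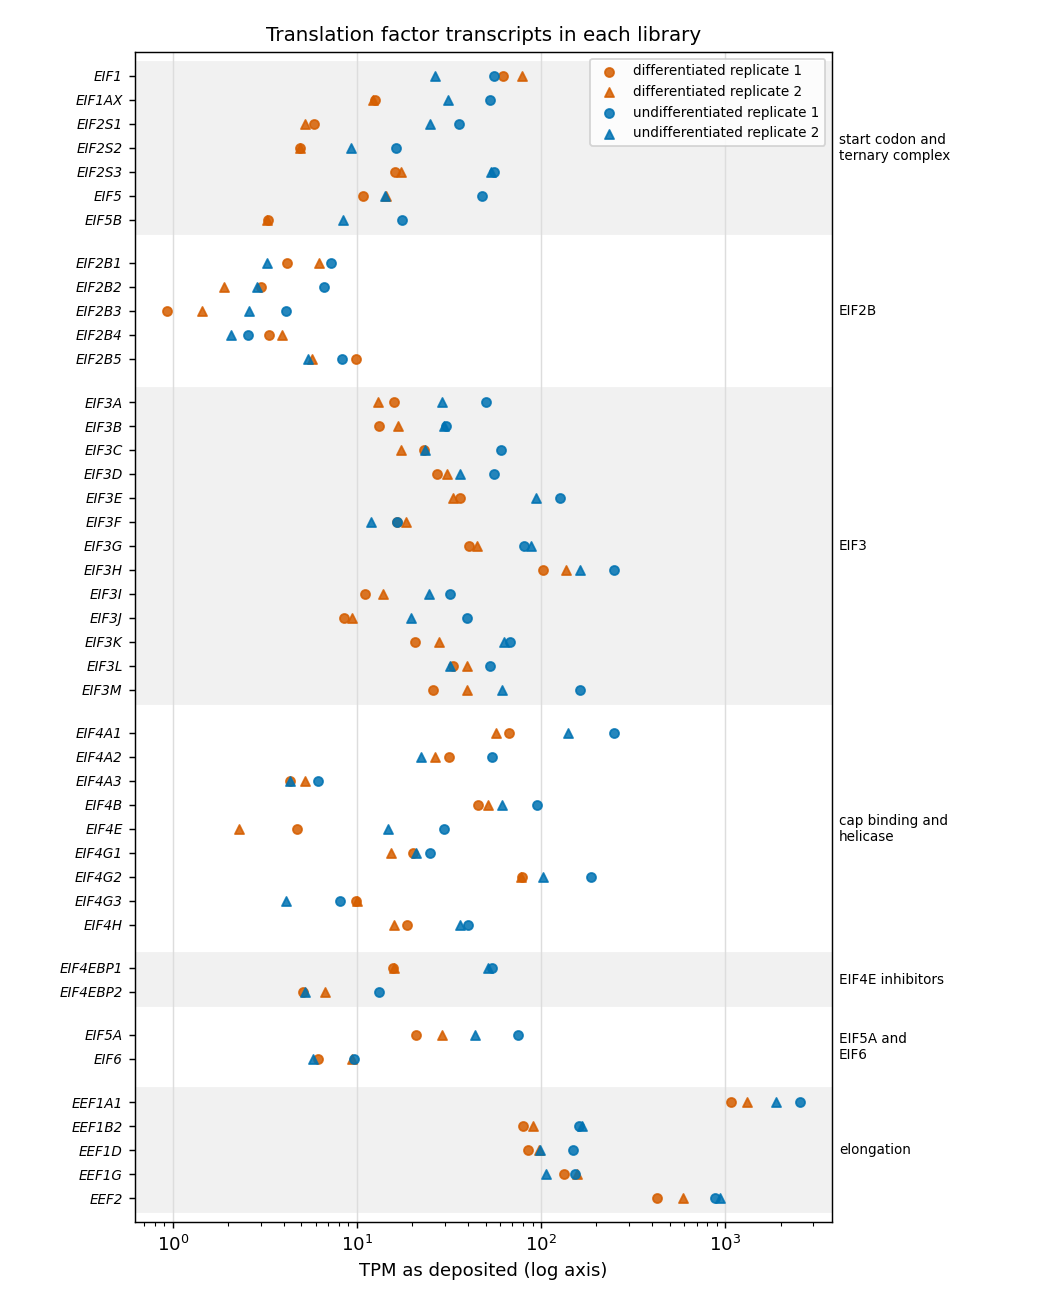
TPM as deposited (log axis) of the 43 factors, grouped by role. Each point is 1 library, orange for differentiated and blue for undifferentiated cells; both orange points lie left of both blue points for 29 factors, and EEF1A1 and EEF2 stand far to the right of the others.

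**Figure D2:**
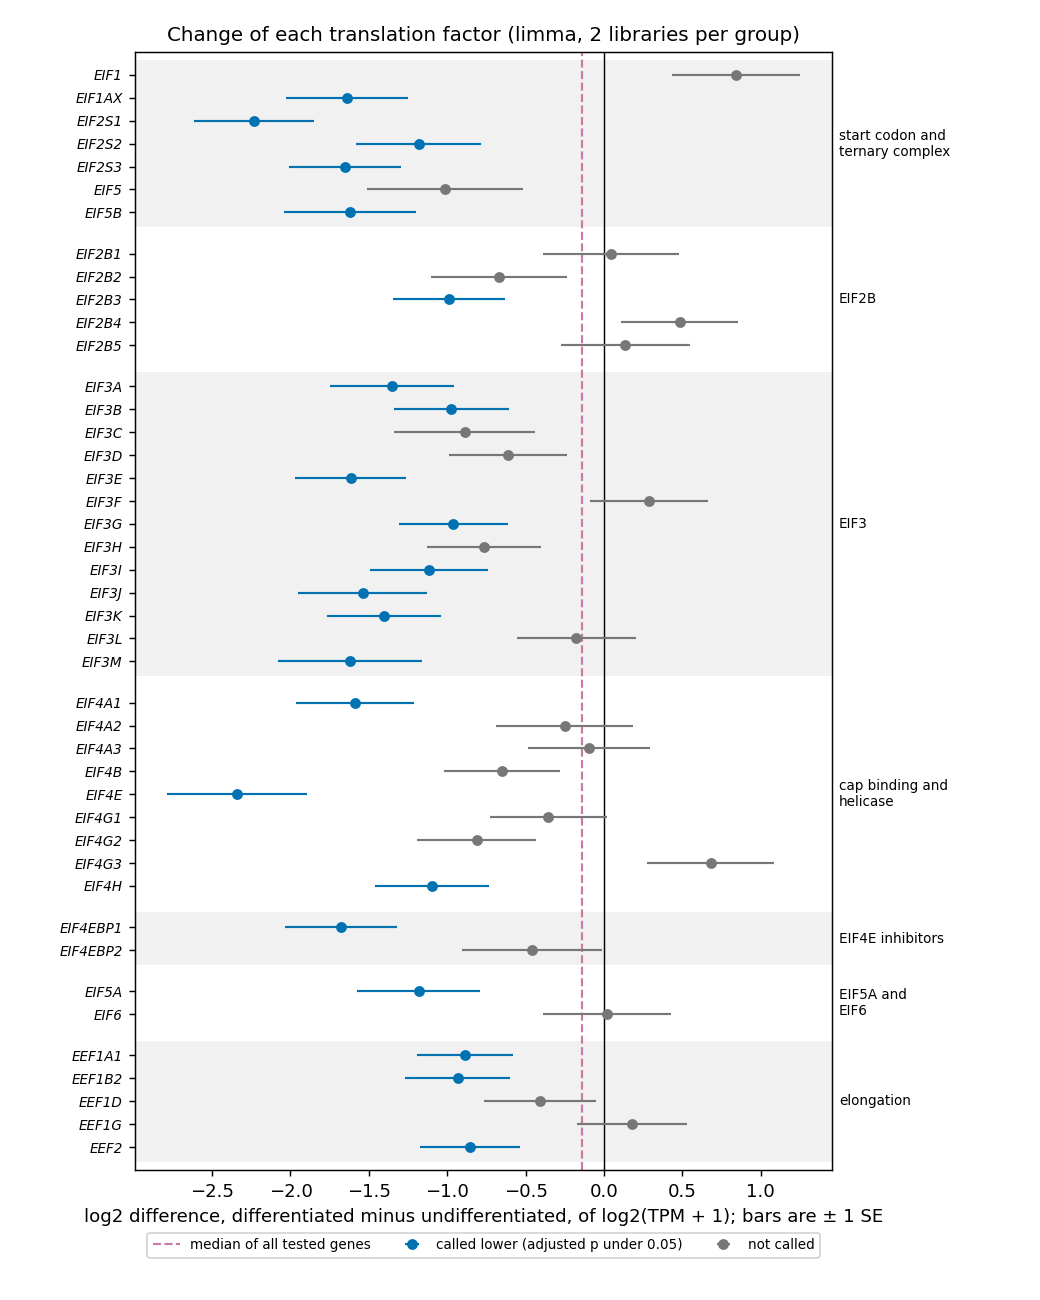
Log2 difference (differentiated minus undifferentiated, log2(TPM + 1) scale) of each factor with 1 SE from limma, 2 libraries per group. Blue points were called lower (22 of 43), grey points were not called, and the dashed line marks the median of all tested genes at -0.14.

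The 3 subunits of eIF2, which carries initiator tRNA, all fell. EIF2S1, the alpha subunit whose phosphorylation shuts down initiation under stress, had 5.85 and 5.26 TPM in differentiated libraries, against 35.7 and 24.9 TPM in undifferentiated libraries. Its log2 difference of -2.23 ± 0.38 (SE, limma adjusted p = 0.000427) was the second largest fall among the 43. EIF2S3, the GTP-binding gamma subunit, had 16.1 and 17.4 TPM in differentiated libraries against 55.6 and 53.7 TPM in undifferentiated libraries, a log2 difference of -1.65 ± 0.36 (SE, limma adjusted p = 0.00235). The libraries of each group lay close together for this subunit and far from those of the other group. EIF2S2, the beta subunit, had 4.92 and 4.90 TPM in differentiated libraries against 16.4 and 9.34 TPM in undifferentiated libraries, with a log2 difference of -1.18 (limma adjusted p = 0.031). On the TPM scale EIF2S3 was the highest and EIF2S2 the lowest of the 3 in every library. The highest subunit exceeded the lowest 3.26 and 3.56 times in differentiated libraries and 3.39 and 5.74 times in undifferentiated libraries.

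Of the 4 factors that act with eIF2 at the start codon, EIF1AX and EIF5B fell and EIF1 and EIF5 were not called. EIF1, which keeps the scanning ribosome from stopping at poor start sites, had 62.0 and 79.0 TPM in differentiated libraries and 55.3 and 26.7 TPM in undifferentiated libraries. Both differentiated libraries were the higher ones, but the log2 difference of 0.85 ± 0.41 (SE, limma adjusted p = 0.115) did not pass as deposited. EIF1 was called higher under each of the other 4 scalings, at 1.42 over protein-coding genes. EIF1AX, the X-linked eIF1A that works with EIF1, had 12.6 and 12.3 TPM in differentiated and 53.1 and 31.4 TPM in undifferentiated libraries (log2 difference -1.64, limma adjusted p = 0.00427). EIF5, which triggers GTP hydrolysis by eIF2 on start codon recognition, had 10.8 and 14.3 TPM in differentiated and 47.7 and 14.2 TPM in undifferentiated libraries. Its groups overlapped because undifferentiated replicate 2 lay within the range of the differentiated libraries (limma adjusted p = 0.121). EIF5B, the GTPase that joins the large subunit, had 3.30 and 3.26 TPM in differentiated libraries and 17.5 and 8.38 TPM in undifferentiated libraries (log2 difference -1.62, limma adjusted p = 0.0076).

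Of the 5 subunits of eIF2B 1 fell, 0 rose and 4 were not called, beside 22.8% of all tested genes called lower and 18.6% higher. EIF2B3, a subunit of the catalytic arm, fell, with 0.93 and 1.45 TPM in differentiated and 4.15 and 2.61 TPM in undifferentiated libraries (log2 difference -0.99, limma adjusted p = 0.0409). The call for EIF2B3 was lost over protein-coding genes alone and without undifferentiated replicate 1. It was also lost with 0.1 in place of 1 added to TPM and with the replicate number as a block. EIF2B5, the catalytic epsilon subunit, had 9.91 and 5.68 TPM in differentiated and 8.33 and 5.46 TPM in undifferentiated libraries, and the groups overlapped. EIF2B4, a regulatory subunit, had 3.35 and 3.94 TPM in differentiated and 2.58 and 2.07 TPM in undifferentiated libraries, so both differentiated libraries were the higher ones. It was not called as deposited (log2 difference 0.48, limma adjusted p = 0.323) and was called higher over protein-coding genes at 1.15. EIF2B1, another regulatory subunit, had 4.16 and 6.26 TPM in differentiated and 7.28 and 3.24 TPM in undifferentiated libraries and was not called. EIF2B2, the remaining regulatory subunit, had 3.03 and 1.90 TPM in differentiated and 6.67 and 2.86 TPM in undifferentiated libraries and was not called. The summed TPM of the 5 subunits was 21.4 and 19.2 in differentiated and 29.0 and 16.2 in undifferentiated libraries, whereas that of the 3 eIF2 subunits was 26.8 and 27.6 in differentiated and 108 and 87.9 in undifferentiated libraries.

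The scaffold eIF3, which holds the small subunit and the mRNA together, had 8 of 13 subunits lower, 0 higher and 5 not called. Its summed TPM was 375 and 442 in differentiated and 1027 and 677 in undifferentiated libraries. As deposited, 22.8% of all tested genes were called lower and 18.6% higher. Over protein-coding genes alone 6 subunits were called lower and 1 higher, beside 18.0% and 34.3% of all tested genes. EIF3E, one of the PCI-domain subunits of the core, had 36.5 and 33.4 TPM in differentiated and 126 and 94.1 TPM in undifferentiated libraries (log2 difference -1.62 ± 0.36 SE, limma adjusted p = 0.00267). EIF3J, a loosely bound subunit, had 8.54 and 9.40 TPM in differentiated and 39.4 and 19.7 TPM in undifferentiated libraries (log2 difference -1.54, limma adjusted p = 0.00906). EIF3A, the largest core subunit, had 16.0 and 13.0 TPM in differentiated and 50.6 and 29.0 TPM in undifferentiated libraries. EIF3M spread widest between replicates of all eIF3 subunits, with 25.9 and 39.6 TPM in differentiated and 164 and 61.5 TPM in undifferentiated libraries. Its call was lost with quantile normalization and without undifferentiated replicate 1. EIF3B, EIF3G and EIF3I, which form a peripheral module, also fell, with log2 differences of -0.97, -0.96 and -1.12. EIF3B had 13.2 and 16.7 TPM in differentiated and 30.7 and 29.6 TPM in undifferentiated libraries. EIF3G had 40.7 and 45.1 TPM in differentiated and 81.1 and 87.8 TPM in undifferentiated libraries. EIF3I had 11.1 and 13.8 TPM in differentiated and 31.9 and 24.7 TPM in undifferentiated libraries. The call for EIF3B held under median-of-ratios scaling and under none of the other 3, and that for EIF3G under none of the 4.

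The 5 eIF3 subunits not called were EIF3C, EIF3D, EIF3F, EIF3H and EIF3L. EIF3F, one of the MPN-domain subunits of the core, had 16.5 and 18.4 TPM in differentiated and 16.6 and 12.0 TPM in undifferentiated libraries, overlapping groups with a log2 difference of 0.29 (limma adjusted p = 0.577), and was called higher with quantile normalization and over protein-coding genes. EIF3L, which forms a dimer with EIF3K, had 33.3 and 39.5 TPM in differentiated and 52.7 and 32.0 TPM in undifferentiated libraries (log2 difference -0.17, limma adjusted p = 0.749, and 0.38 over protein-coding genes). Its partner EIF3K fell, with 20.8 and 28.0 TPM in differentiated and 68.1 and 62.8 TPM in undifferentiated libraries (log2 difference -1.40, limma adjusted p = 0.00737). EIF3H, the most abundant subunit in every library, had 103 and 137 TPM in differentiated and 249 and 163 TPM in undifferentiated libraries, which did not overlap, and was not called (limma adjusted p = 0.108). EIF3C, at 23.1 and 17.3 TPM in differentiated and 60.7 and 23.6 TPM in undifferentiated libraries, had a log2 difference of -0.89. EIF3D, a subunit that can bind the cap, had 27.2 and 31.0 TPM in differentiated and 55.5 and 36.3 TPM in undifferentiated libraries, a log2 difference of -0.61. The lowest subunit was EIF3J in both differentiated libraries and EIF3F in both undifferentiated libraries.

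Of the 9 cap-binding and helicase factors, 3 fell, 0 rose and 6 were not called. This stands beside 22.8% of all tested genes called lower and 18.6% higher. Over protein-coding genes 2 of the 9 were called lower and 1 higher, beside 18.0% and 34.3% of all tested genes. EIF4E, which binds the cap, showed the largest fall of the 43, with 4.72 and 2.28 TPM in differentiated libraries and 29.8 and 14.7 TPM in undifferentiated libraries. Its mean was 3.50 ± 1.73 TPM after differentiation and 22.2 ± 10.7 TPM without it (SD, n = 2 each), a log2 difference of -2.34 ± 0.45 (SE, limma adjusted p = 0.000964). EIF4G1, the scaffold that EIF4E binds, had 20.1 and 15.4 TPM in differentiated and 24.9 and 20.8 TPM in undifferentiated libraries and was not called (log2 difference -0.36, limma adjusted p = 0.478, and 0.19 over protein-coding genes). Its paralogue EIF4G3 had 9.92 and 10.1 TPM in differentiated and 8.11 and 4.15 TPM in undifferentiated libraries. EIF4G3 was not called as deposited (limma adjusted p = 0.201) and was called higher under 3 of the other 4 scalings, at 1.32 over protein-coding genes. EIF4G2, a related protein without the EIF4E-binding site, had 79.1 and 78.2 TPM in differentiated and 188 and 103 TPM in undifferentiated libraries (limma adjusted p = 0.104).

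Of the paralogous helicases, EIF4A1 fell and the others were not called. EIF4A1, the main RNA helicase of eIF4F, had 66.8 and 56.7 TPM in differentiated and 250 and 140 TPM in undifferentiated libraries (log2 difference -1.59 ± 0.38 SE, limma adjusted p = 0.00436). EIF4A2 had 31.8 and 26.5 TPM in differentiated and 54.0 and 22.2 TPM in undifferentiated libraries, overlapping groups (log2 difference -0.25, limma adjusted p = 0.682, and 0.31 over protein-coding genes). EIF4A3, the helicase of the exon junction complex, had 4.36 and 5.22 TPM in differentiated and 6.16 and 4.31 TPM in undifferentiated libraries. Of the helicase cofactors, EIF4H fell, with 18.6 and 16.0 TPM in differentiated and 40.1 and 36.2 TPM in undifferentiated libraries (log2 difference -1.10, limma adjusted p = 0.0272). The call for EIF4H was lost with quantile normalization, over protein-coding genes and with the replicate number as a block. EIF4B, at 45.3 and 51.6 TPM in differentiated and 95.3 and 61.2 TPM in undifferentiated libraries, was not called (limma adjusted p = 0.18).

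The EIF4E inhibitor EIF4EBP1, which releases EIF4E when mTORC1 phosphorylates it, fell along with EIF4E. It had 15.8 and 15.9 TPM in differentiated and 54.3 and 51.7 TPM in undifferentiated libraries, a log2 difference of -1.68 ± 0.36 (SE, limma adjusted p = 0.00209). EIF4EBP2 had 5.09 and 6.74 TPM in differentiated and 13.3 and 5.24 TPM in undifferentiated libraries, which overlapped. EIF5A frees ribosomes stalled at difficult peptide bonds and carries the amino acid hypusine. It had 21.0 and 28.9 TPM in differentiated and 74.6 and 43.8 TPM in undifferentiated libraries (log2 difference -1.18, limma adjusted p = 0.0284). The call for EIF5A was lost with quantile normalization, with the replicate number as a block and without undifferentiated replicate 1. EIF6, which keeps free large subunits from joining small ones, had 6.16 and 9.46 TPM in differentiated and 9.70 and 5.80 TPM in undifferentiated libraries, overlapping groups with no difference called (limma adjusted p = 0.975).

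Of the 5 elongation factors 3 fell, 0 rose and 2 were not called, beside 22.8% of all tested genes called lower and 18.6% higher. EEF1A1 and EEF2 were the most abundant of the 43 in every library. EEF1A1, which brings aminoacyl-tRNA to the ribosome, had 1076 and 1317 TPM in differentiated and 2560 and 1890 TPM in undifferentiated libraries (log2 difference -0.89 ± 0.31 SE, limma adjusted p = 0.0344). EEF2, the translocase, had 428 and 589 TPM in differentiated and 883 and 937 TPM in undifferentiated libraries (log2 difference -0.86 ± 0.32 SE, limma adjusted p = 0.0465). EEF1B2, a nucleotide exchange subunit for eEF1A, had 80.3 and 90.0 TPM in differentiated and 160 and 167 TPM in undifferentiated libraries (log2 difference -0.93, limma adjusted p = 0.0407). None of these 3 was called over protein-coding genes, where their differences were -0.32, -0.29 and -0.38. Of the other 3 scalings, quantile normalization kept the call for EEF1A1, and none kept that for EEF2 or EEF1B2. EEF1A1 and EEF2 were also not called without undifferentiated replicate 1, nor EEF2 without undifferentiated replicate 2. The other subunits of the exchange complex were not called. EEF1G had 133 and 156 TPM in differentiated and 153 and 106 TPM in undifferentiated libraries, and was called higher over protein-coding genes at 0.74. EEF1D had 85.4 and 97.9 TPM in differentiated and 149 and 99.2 TPM in undifferentiated libraries. Together the 43 factors held 2.17% and 2.35% of the protein-coding TPM in differentiated libraries and 2.65% and 2.93% in undifferentiated libraries. Most of this share was EEF1A1 and EEF2. The other 41 factors held 0.935% and 0.938% in differentiated and 1.15% and 1.12% in undifferentiated libraries.

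**Figure D3:**
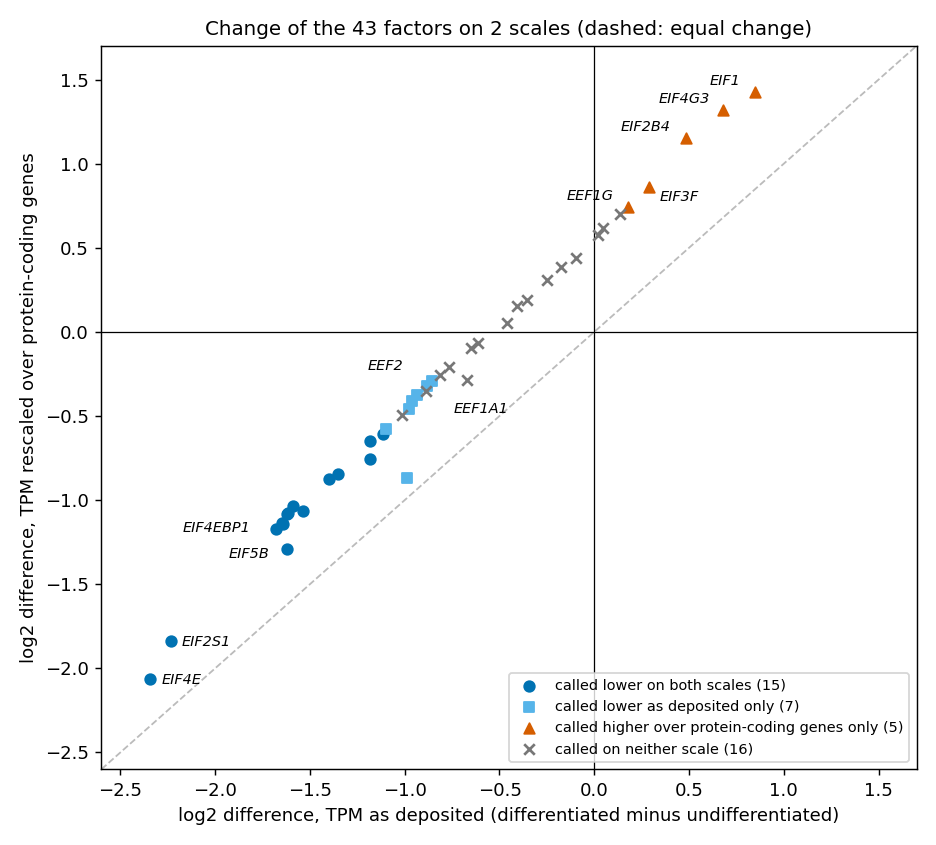
Log2 difference (differentiated minus undifferentiated) of each factor with TPM as deposited (x axis) and rescaled over protein-coding genes (y axis); the dashed line marks equal change. All points lie above it, 15 factors were called lower on both scales, 7 as deposited only, 5 higher over protein-coding genes only, and 16 on neither.

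A ratio between factors within a library is unaffected by any scaling that multiplies the whole library by 1 factor, which quantile normalization does not do. The 8 ratios given here were chosen after the values had been seen. EIF1 to EIF5, factors with opposing effects on start codon stringency, stood at 5.75 and 5.51 in differentiated libraries and 1.16 and 1.89 in undifferentiated libraries. The summed eIF2B to eIF2 ratio was 0.797 and 0.697 in differentiated and 0.269 and 0.185 in undifferentiated libraries. EIF4A1 exceeded EIF4A2 2.10 and 2.14 times in differentiated and 4.63 and 6.31 times in undifferentiated libraries. EIF4G1 to EIF4E was 4.26 and 6.75 in differentiated and 0.837 and 1.42 in undifferentiated libraries, so EIF4E was the scarcer transcript in both differentiated libraries and in undifferentiated replicate 2. EEF1G to EEF1B2 was 1.66 and 1.74 in differentiated and 0.953 and 0.639 in undifferentiated libraries. EIF4G3 to EIF4G1 was 0.494 and 0.653 in differentiated and 0.325 and 0.199 in undifferentiated libraries.

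Groups overlapped for the remaining pair of ratios. EIF4EBP1 to EIF4E was 3.34 and 6.99 in differentiated and 1.82 and 3.52 in undifferentiated libraries. EEF1A1 to EEF2 was 2.52 and 2.24 in differentiated and 2.90 and 2.02 in undifferentiated libraries. With 2 libraries against 2, an exact two-sided permutation test cannot give p below 0.333, the value for each of the 6 ratios whose groups did not overlap. Of all 903 pairs of the 43 factors, 69.9% had ratios that did not overlap between groups.

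**Figure D4:**
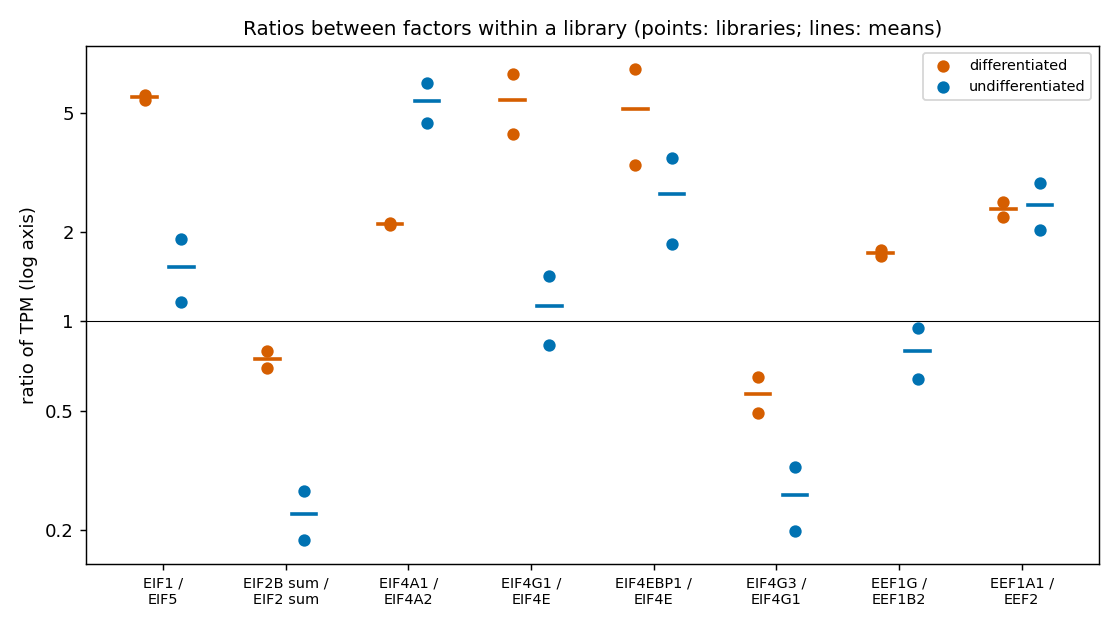
TPM ratios of 8 pairs of factors or sums (log axis), with 1 point per library and lines at the group means, differentiated on the left and undifferentiated on the right of each pair. EIF4G1 to EIF4E is above 4 in both differentiated libraries and below 1.5 in both undifferentiated libraries, while EEF1A1 to EEF2 overlaps.

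Start regions of the factors were read from RefSeq promoter windows (GRCh38.p14), which cover 250 bases before and 50 bases from the annotated start, and 35 of the 43 symbols matched. No window was matched for EEF1D, EIF2S2, EIF3A, EIF3E, EIF3G, EIF3H, EIF3L and EIF4EBP1. mRNAs of the translation machinery often begin with a terminal oligopyrimidine run, a C followed by further C or T bases in the DNA, which makes their translation sensitive to mTORC1. A C at the annotated start followed by at least 4 bases that were each C or T was found for 10 of the 35 factors (28.6%). Per gene, the share was 5.14% over all genes, 6.24% over protein-coding genes and 71.6% over 67 ribosomal protein genes. Per window, since a gene can have several, it was 20.8% of the factors' 48 windows and 4.07% of all windows. The 10 starts are shown because this sequence is the element through which mTORC1 acts on such mRNAs. Each line gives 15 bases before and 15 bases from the start, read 5' to 3' on the gene's strand, with the pyrimidine run in capitals as far as the printed stretch reaches.
EEF1A1, chr6:73521018-73521047, minus strand: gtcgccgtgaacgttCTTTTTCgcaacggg
EEF1B2, chr2:206159880-206159909, plus strand: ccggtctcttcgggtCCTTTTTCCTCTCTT
EEF2, chr19:3985449-3985478, minus strand: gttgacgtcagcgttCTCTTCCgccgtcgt
EIF2S3, chrX:24054941-24054970, plus strand: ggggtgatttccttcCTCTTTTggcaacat
EIF3D, chr22:36529152-36529181, minus strand: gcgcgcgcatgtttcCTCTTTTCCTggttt
EIF3F, chr11:7987322-7987351, plus strand: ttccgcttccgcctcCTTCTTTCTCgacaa
EIF3K, chr19:38619173-38619202, plus strand: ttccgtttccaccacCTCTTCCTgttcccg
EIF3M, chr11:32583816-32583845, plus strand: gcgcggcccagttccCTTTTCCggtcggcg
EIF4A2, chr3:186783562-186783591, plus strand: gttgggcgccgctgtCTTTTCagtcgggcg
EIF4B, chr12:53006441-53006470, plus strand: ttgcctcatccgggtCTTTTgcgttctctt

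Both kinds of start were found among the factors that fell. Only the exact annotated base was read as the start, and a factor with several starts was counted if any had the run. EEF1B2 was counted in this way, although its other annotated start lacked the run. Of the 10 with the run, 6 were called lower and 0 higher, with a median log2 difference of -0.87 and a range of -1.65 to 0.29. Of the 25 with a window and no run at the start, 11 were called lower and 0 higher, with a median of -0.89 and a range of -2.34 to 0.85. Over all tested genes 22.8% were called lower and 18.6% higher. Over protein-coding genes 3 of the 10 were called lower and 1 higher, with a median of -0.31. Of the 25, 8 were called lower and 4 higher on that scale, with a median of -0.35. The shares of all tested genes there were 18.0% lower and 34.3% higher. The helicase paralogues differed in their starts, since EIF4A2 had the run and EIF4A1, which fell, did not. The EIF4A1 start is shown here in lower case for comparison with the EIF4A2 line above.
EIF4A1, chr17:7572810-7572839, plus strand: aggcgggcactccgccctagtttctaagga

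A second motif was searched because factors of the MYC family bind it, the palindrome CACGTG, which reads the same on both strands. It occurred in the 300 base windows of 8 of the 35 factors (22.9%), against 8.77% of all genes and 10.9% of protein-coding genes. Per window, it occurred in 16.7% of the factors' windows and 7.26% of all windows. The 8 were EIF2B3, EIF3F, EIF3K, EIF4A3, EIF4B, EIF4E, EIF4G1 and EIF4H. Of these 8, EIF2B3, EIF3K, EIF4E and EIF4H were called lower, a share like that of the whole list, where 22 of 43 were. The calls for EIF2B3 and EIF4H were lost over protein-coding genes. It occurred more than once in EIF4E, at -225 and -72 from the annotated start, and in EIF4G1, which was not called, at -144 and -67, counted to the first base of the motif. The EIF4E and EIF4G1 stretches are printed on the gene's strand with the motif in capitals. A match is a description of these letters only and says nothing of binding in these cells.
EIF4E upstream match, chr4:98929341-98929370, minus strand: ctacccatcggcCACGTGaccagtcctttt
EIF4E match near the start, chr4:98929188-98929217, minus strand: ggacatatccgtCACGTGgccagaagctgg
EIF4G1 upstream match, chr3:184314450-184314479, plus strand: ggctgtggctgtCACGTGacggggcggggg
EIF4G1 match near the start, chr3:184314527-184314556, plus strand: ccctgcgccggtCACGTGggggcgccggct

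Some factor genes carry small nucleolar RNAs in their introns, which guide modification or processing of ribosomal RNA and are freed when the host transcript is spliced. By GENCODE 29 gene coordinates, 19 such RNAs lie on the same strand within 9 of the factor genes, 9 of them listed at 0 in all 4 libraries. Over all 10180 tested genes, 9295 of them protein-coding, 31.0% were higher in both differentiated libraries. No such share was computed over small nucleolar RNAs as a class. Of the 6 RNAs within factor genes that were above 0 in every library, 5 were higher in both differentiated libraries. That selection leaves out RNAs listed at 0 in a library, such as SNORA41 within EEF1B2, which had 10.9 and 0 TPM in differentiated and 29.7 and 20.1 TPM in undifferentiated libraries and so lay lower, as its host did. It also leaves out SNORA81 within EIF4A2, which had 308 and 139 TPM in differentiated and 0 and 5.81 TPM in undifferentiated libraries. EIF4A1 hosts SNORA48, listed at 10302 and 15535 TPM in differentiated and 3728 and 3892 TPM in undifferentiated libraries, while EIF4A1 itself fell. SNORD10 in the same host had 623 and 540 TPM in differentiated and 237 and 190 TPM in undifferentiated libraries. SNORA67, also in EIF4A1, had 687 and 656 TPM in differentiated and 404 and 275 TPM in undifferentiated libraries. In EIF4A1 the host was thus the lower and each of the 3 hosted RNAs the higher in both differentiated libraries. SNORA63, within EIF4A2, stood at 2782 and 2729 TPM in differentiated and 48.8 and 221 TPM in undifferentiated libraries. SNORA19, within EIF3A, had 77.6 and 67.4 TPM in differentiated and 40.7 and 26.0 TPM in undifferentiated libraries. SNORD97, within EIF4G2, had 26.1 and 65.6 TPM in differentiated and 64.3 and 19.4 TPM in undifferentiated libraries, which overlapped. The RNAs named here are 128 to 178 bases long, and TPM of such short RNAs are sensitive to fragment length. No test was made of them, and an exact 0 can be a failed estimate.

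**Figure D5:**
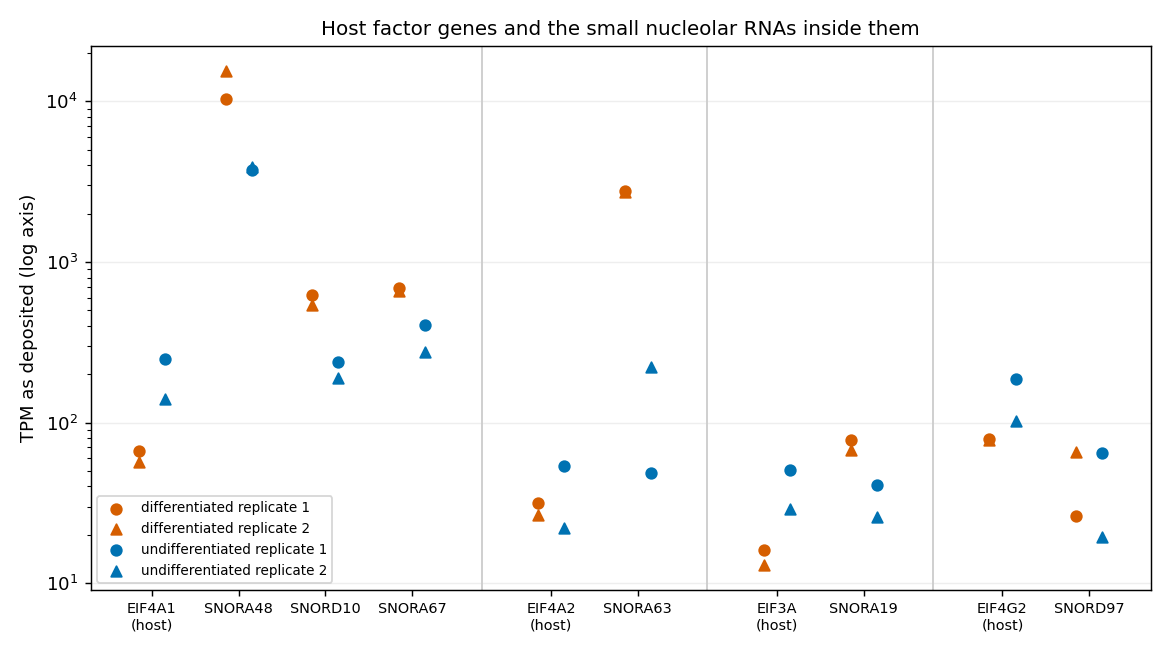
TPM as deposited (log axis) of 4 factor genes and of the 6 small nucleolar RNAs inside them that were above 0 in all libraries, orange for differentiated and blue for undifferentiated. EIF4A1 and EIF3A lie lower in differentiated cells while SNORA48, SNORD10, SNORA67 and SNORA19 lie higher.

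Copies of the factor genes share sequence with them, and the authors' estimator divides reads between such copies. Of 133 processed or duplicated copies in the table, 12 reached 1 TPM in a library, and they belong to 10 factors. EIF1AXP1, a processed copy of EIF1AX, held 6.96 and 7.10 TPM in differentiated and 22.4 and 12.4 TPM in undifferentiated libraries, or 55.4% and 57.8% of the EIF1AX value in differentiated against 42.1% and 39.3% in undifferentiated libraries. EIF3CL, a near-identical duplicate, held 42.3% and 94.3% of the EIF3C value in differentiated and 19.6% and 48.0% in undifferentiated libraries, so EIF3C is uncertain. EIF3C and EIF3CL summed to 32.9 and 33.7 TPM in differentiated and 72.6 and 34.9 TPM in undifferentiated libraries. EEF1A1P5 held 2.13% and 1.69% of EEF1A1 in differentiated and 0.959% and 0.62% in undifferentiated libraries.

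Other parts of the translation machinery were read from the same fit, in which 22.8% of all tested genes were called lower and 18.6% higher. With TPM rescaled over protein-coding genes these shares were 18.0% and 34.3%. Of 81 tested ribosomal proteins, 37 fell, 1 rose and 43 were not called, with a median log2 difference of -0.87, against -0.14 over all tested genes. Over protein-coding genes 33 of the 81 were called lower and 10 higher, with a median of -0.31 against 0.37 over all tested genes. RPS29 had 163 and 177 TPM in differentiated and 1899 and 1411 TPM in undifferentiated libraries, and RPL39 had 278 and 378 TPM in differentiated libraries against 1974 and 1693 TPM in undifferentiated libraries. RPS28 was the ribosomal protein called higher, with 27.0 and 38.9 TPM in differentiated and 16.2 and 15.5 TPM in undifferentiated libraries. A list of 22 genes held the cytosolic aminoacyl-tRNA synthetases together with AIMP1 and AIMP2, which are scaffold proteins of the synthetase complex. Of these 22 genes, 12 fell, 0 rose and 10 were not called, with a median of -1.07. Over protein-coding genes 12 of the 22 were called lower and 1 higher. IARS, which charges isoleucine tRNA, had 4.81 and 5.29 TPM in differentiated and 49.5 and 31.5 TPM in undifferentiated libraries. EPRS, which charges glutamate and proline tRNAs, had 2.01 and 2.04 TPM in differentiated and 18.8 and 7.40 TPM in undifferentiated libraries. Of 9 tested mitochondrial translation factors 1 fell, GFM2, a factor that recycles mitochondrial ribosomes, with 2.91 and 1.99 TPM in differentiated and 12.4 and 8.97 TPM in undifferentiated libraries, and the median of the 9 was -0.21.

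Of 22 further cytosolic initiation, termination and recycling factors tested, 9 fell, 1 rose and 12 were not called, with a median log2 difference of -0.83. Over all tested genes 22.8% were called lower and 18.6% higher. Over protein-coding genes 6 of 24 were called lower and 5 higher, beside 18.0% and 34.3% of all tested genes. EIF2A, an initiation factor unrelated to the eIF2 trimer, had 10.9 and 13.8 TPM in differentiated and 71.5 and 66.6 TPM in undifferentiated libraries (log2 difference -2.40, limma adjusted p = 0.000171). MCTS1, which acts with DENR in reinitiation and recycling, had 2.90 and 2.37 TPM in differentiated and 13.0 and 8.26 TPM in undifferentiated libraries. CTIF, a cap-complex protein of the first round of translation, rose, with 4.22 and 5.88 TPM in differentiated and 0.69 and 0.51 TPM in undifferentiated libraries. Of 9 tested further elongation factors and modifying enzymes, 3 fell, 0 rose and 6 were not called, with a median of -0.21. EEF1E1, a scaffold of the synthetase complex, had 0.99 and 1.71 TPM in differentiated and 26.5 and 14.0 TPM in undifferentiated libraries (log2 difference -3.13, limma adjusted p = 7.42e-05). EEF1AKMT1, a lysine methyltransferase of eEF1A, had 0.95 and 1.38 TPM in differentiated and 10.9 and 9.59 TPM in undifferentiated libraries.

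Genes that signal to initiation were read as lists of their own. Of 21 tested genes of mTORC1 and MNK signalling, 5 rose, 1 fell and 15 were not called, with a median log2 difference of 0.27, beside 18.6% of all tested genes called higher and 22.8% lower. Over protein-coding genes 13 of 23 were called higher and 1 lower, beside 34.3% and 18.0% of all tested genes. MKNK1, a kinase that phosphorylates EIF4E, had 15.8 and 16.2 TPM in differentiated and 3.11 and 1.64 TPM in undifferentiated libraries (log2 difference 2.37, limma adjusted p = 0.000367). DDIT4, a stress-induced inhibitor of mTORC1, had 8.18 and 8.99 TPM in differentiated and 0.66 and 0.68 TPM in undifferentiated libraries (log2 difference 2.52, limma adjusted p = 0.000137). LAMTOR5, a subunit of the lysosomal scaffold that recruits mTORC1, fell, with 7.64 and 8.32 TPM in differentiated and 46.4 and 24.3 TPM in undifferentiated libraries. Of 10 tested genes of the integrated stress response, 3 fell, 1 rose and 6 were not called, with a median of -0.42, and over protein-coding genes 3 of 12 were called lower and 3 higher. PPP1R15A, the inducible subunit of the phosphatase that acts on phosphorylated EIF2S1, rose, with 6.60 and 7.01 TPM in differentiated and 1.63 and 1.68 TPM in undifferentiated libraries (log2 difference 1.56, limma adjusted p = 0.00488). EIF2AK2, the double-stranded RNA-activated kinase of EIF2S1, fell, with 4.44 and 3.75 TPM in differentiated and 15.3 and 7.95 TPM in undifferentiated libraries. ASNS, the asparagine synthetase gene that ATF4 activates, fell, with 0.96 and 1.56 TPM in differentiated and 10.8 and 5.67 TPM in undifferentiated libraries.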

How the data were processed

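RNA sequencing of total RNA from BLaER1 cells gave 4 libraries, 2 differentiated and 2 undifferentiated, from stranded libraries per the labels' protocols. The deposited values are the authors' TPM in 1 table of 58302 rows. Trimmomatic, STAR and RSEM are named in the submitters' processing notes, while no version, build or annotation is given in the sources used here. TPM keeps no depth, so no counting error was computed.

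Columns were assigned by sample titles, and members by symbol. The 10180 genes reaching 1 TPM in 2 or more libraries were tested on log2(TPM + 1) with limma 3.58.1 in R 4.3.3 (moderated variances with a trend, two-sided, 2 residual and 10.9 prior degrees of freedom), with Benjamini-Hochberg adjustment over all of them and a threshold of 0.05. The 1 added to TPM before taking log2 shrinks the differences of genes with low values. The procedure was run on simulated data with 200 changed genes and independent errors, which lack the shift seen between the undifferentiated libraries. Such data cannot show how the procedure handles that shift. Gene types came from GENCODE 29 (58039 IDs matched), start windows from RefSeq. Members, lists and alternatives were chosen with earlier results of these data known. All members may be named, with up to 2 called rises and falls per related list with non-overlapping libraries.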

Additional observations from a re-analysis of the deposited data

How the results depend on the processing

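As deposited, 22 factors were called lower and 0 higher, and 1890 genes higher and 2326 lower overall. The number of factors called lower was 3 with no filter on low values and 12 with the replicate number as a block, although the labels give the numbers no shared source and same-numbered libraries did not deviate together (correlation of deviations -0.0237). It ran from 0 to 30 with single libraries left out, and the number called higher from 0 to 2. The count of higher factors was 2 under median-of-ratios scaling, 4 under quantile normalization, 1 with the most abundant RNAs removed and 5 over protein-coding genes. Over all genes, 687 were higher and 573 lower with no filter, 1016 and 1420 with a filter of 5 TPM, 3089 higher without the most abundant RNAs and 4102 higher over protein-coding genes. With single libraries left out the counts ran from 934 to 2714 higher and from 337 to 3818 lower. Of the 22, 20 stayed called with a pseudocount of 0.1 and 20 with eBayes without a trend. More genes (29186) were tested without a filter, and the cause of these shifts was not tested.

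With 1 library left in a group, limma assumes that it varies like those of the other group. No called factor changed sign under these alternatives. Among uncalled ones, quantile normalization turned EIF3L to 0.33, EIF4A2 to 0.19, EIF4G1 to 0.04 and EEF1D to 0.08. Over protein-coding genes EIF3L was 0.38, EIF4A2 0.31, EIF4A3 0.44, EIF4G1 0.19, EIF4EBP2 0.05 and EEF1D 0.15. EIF4A3 was 0.02 after median-of-ratios scaling and 0.04 without the most abundant RNAs. With single libraries left out, the difference ran from -0.44 to 0.53 for EIF2B1, from -0.22 to 0.49 for EIF2B5, from -0.53 to 0.18 for EIF3L, from -0.87 to 0.37 for EIF4A2 and from -0.31 to 0.12 for EIF4A3. It ran from -0.31 to 0.35 for EIF6, from -1.05 to 0.14 for EIF4EBP2 and from -0.08 to 0.43 for EEF1G.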
